A study of Mus musculus with 4 samples.

Results

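Dense clusters of shared distal peaks are stretches of the genome in which many DNase I-accessible sites, found in both biological replicates of mouse acute myeloid leukemia cells, lie close together away from the start sites of protein-coding genes. A peak of replicate 1 was taken when it lay on an autosome, overlapped a peak of replicate 2 by at least 1 bp and lay more than 1 kb from every transcription start site (TSS) of a protein-coding gene. Such peaks were joined into runs wherever the gap between neighbours was 12500 bp or less, and a run of 8 or more peaks is called a dense cluster. Of 187266 autosomal replicate 1 peaks beyond 1 kb from a TSS, 41195 (22%) had a partner in replicate 2. Of these 41195 shared distal peaks, 1352 (3.28%) lay in 139 dense clusters, and the 39843 outside them are called the other shared distal peaks. The members were therefore chosen by the presence of a peak in both lists and by its position. Cluster size, spacing and peak scores describe the same lists and carry no test.

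The study profiled chromatin with DNase-seq, in which the nuclease DNase I cuts accessible DNA in nuclei and the cut ends are sequenced. Its 4 libraries are 2 technical replicates of each of 2 biological replicates of acute myeloid leukemia cells of the C57BL/6J mouse strain, listed by the submitters as in vitro differentiated. The labels assign both biological replicates to 1 donor and give no treatment, time point or control, and age, sex and developmental stage are not given. The authors pooled the libraries of a replicate before calling sites, so each value below belongs to 1 pooled list, without an error between replicates. The read depth behind the lists is unknown here.

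Accessible sites far from promoters mark enhancers, insulators and other regulatory elements, where bound transcription factors keep nucleosomes away. In blood cells, many genes that define a lineage are flanked by groups of such sites, and factors such as PU.1, RUNX1 and C/EBP proteins bind them in myeloid cells. CTCF binds insulators and the anchors of chromatin loops. The labelled lineage was checked at 16 chosen promoters: shared promoter peaks were present at 8 of 8 myeloid genes (Spi1, Cebpa, Cebpe, Csf3r, Mpo, Itgam, Fcgr3 and Lyz2) and at 1 of 8 genes of other cell types. That gene was Col1a1, a collagen of connective tissue, with promoter scores of 132 in replicate 1 and 64 in replicate 2. Its part in the results below was not tested. Longer lists separated less: a shared promoter peak was present at 17 of 18 myeloid transcription factor genes, 13 of 19 neutrophil genes and 18 of 20 monocyte and macrophage genes, but also at 8 of 12 neuronal, 7 of 15 T and NK cell, 8 of 12 erythroid and megakaryocyte, 4 of 12 B cell and 2 of 12 hepatocyte genes. Of all autosomal protein-coding genes, 59.2% had one.

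The following 9 sequences show what the members look like. Each is a whole peak of 150 bp read from the plus strand of GRCm38 (mm10, RefSeq copy), in lower case, with capitals as stated. Capitals mark only the letters named for each peak. Matches of other motifs searched below stay unmarked, among them KLF/SP letters in the Lrrc25 and Mreg peaks and MYB letters in the Fosb peak. Scores are the authors' whole numbers per peak. The strongest peaks of the clusters with the most peaks come from chr7:19320056-19320205 in the Fosb and Rtn2 cluster (scores of 150 in replicate 1 and 93 in replicate 2), from chr11:69410456-69410605 in an intron of Kdm6b (148 and 93) and from chr8:84198396-84198545 in the cluster around the Mir23a, Mir27a and Mir24-2 genes (150 and 96). Capitals mark a RUNX motif in the Fosb peak and an AP-1 motif in the Kdm6b peak, and the Mir23a peak held none of the motifs marked here.
Fosb: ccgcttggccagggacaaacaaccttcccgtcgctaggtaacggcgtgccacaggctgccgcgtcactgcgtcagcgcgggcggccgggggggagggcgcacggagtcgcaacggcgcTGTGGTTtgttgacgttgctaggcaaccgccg
Kdm6b: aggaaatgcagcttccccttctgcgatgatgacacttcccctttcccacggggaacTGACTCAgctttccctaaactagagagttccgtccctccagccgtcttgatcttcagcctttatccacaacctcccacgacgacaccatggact
Mir23a: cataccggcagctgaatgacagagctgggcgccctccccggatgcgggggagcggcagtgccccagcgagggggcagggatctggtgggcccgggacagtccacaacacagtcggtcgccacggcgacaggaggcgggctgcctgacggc

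The next peaks show motifs of myeloid and loop-anchor factors in strong members. They lie at chr8:70618976-70619125 in an intron of Lrrc25 (149 and 98), at chr5:3491316-3491465 in an intron of Cdk6 (149 and 72), at chr17:29395456-29395605 beside Fgd2 (149 and 68) and at chr1:72254716-72254865 near Mreg (147 and 90). The Mreg peak lies within 1 kb of a noncoding TSS, in a cluster of 9 peaks of which 8 are near snRNA genes. Capitals mark an AP-1 motif at Lrrc25, a generic ETS motif on the minus strand at Cdk6, an ETS-IRF composite and an IRF motif at Fgd2, and a CTCF motif at Mreg.
Lrrc25: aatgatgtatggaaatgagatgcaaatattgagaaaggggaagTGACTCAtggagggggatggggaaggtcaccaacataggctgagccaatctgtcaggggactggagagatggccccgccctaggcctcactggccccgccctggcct
Cdk6: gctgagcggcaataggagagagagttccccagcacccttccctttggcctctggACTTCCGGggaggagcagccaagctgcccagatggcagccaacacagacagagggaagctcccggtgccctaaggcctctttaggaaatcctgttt
Fgd2: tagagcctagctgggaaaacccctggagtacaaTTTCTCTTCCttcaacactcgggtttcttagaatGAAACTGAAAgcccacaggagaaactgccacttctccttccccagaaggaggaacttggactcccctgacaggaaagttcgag
Mreg: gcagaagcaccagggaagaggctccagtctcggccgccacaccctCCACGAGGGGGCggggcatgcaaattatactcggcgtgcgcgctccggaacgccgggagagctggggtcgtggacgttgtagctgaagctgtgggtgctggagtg

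The last pair shows a peak near tRNA genes and a peak in repeat-masked sequence. The peak at chr13:23518996-23519145 (138 and 49) belongs to a cluster of 11 peaks, 10 of them within 1 kb of a tRNA gene, and its capitals mark the B-box letters GTTCNANNC, the internal promoter element of tRNA genes. The peak at chr4:3083396-3083545 (123 and 44) belongs to a cluster in sequence that the reference masks as repetitive, and its capitals mark the 6 copies of its most frequent 6-letter word, TGGAGC.
tRNA: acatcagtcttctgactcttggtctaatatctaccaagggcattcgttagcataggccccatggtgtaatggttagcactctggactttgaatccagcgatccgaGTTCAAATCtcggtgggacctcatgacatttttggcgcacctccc
repeat: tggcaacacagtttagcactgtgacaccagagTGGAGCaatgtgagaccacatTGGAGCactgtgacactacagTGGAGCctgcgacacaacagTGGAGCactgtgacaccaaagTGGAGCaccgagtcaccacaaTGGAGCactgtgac

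The 139 clusters lay on all 19 autosomes and together spanned 4.38 Mb. A cluster spanned between 2.97 and 71.9 kb, with a median of 30.7 kb, and held 9 peaks at the median and 22 at most. Exactly 8 peaks, the smallest number the rule allows, were held by 51 clusters, and 22 clusters held 12 or more. Gaps between neighbouring members had a median of 2210 bp and quartiles of 470 and 5690 bp, well inside the joining distance, and 48 of 1213 neighbouring pairs overlapped. The count therefore includes some adjacent windows over 1 wide accessible stretch. Just inside the threshold, the 408 peaks in runs of 8 had median scores of 131 in replicate 1 and 43 in replicate 2. Just outside it, the 644 peaks in the 92 runs of 7 had medians of 128 and 42.

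The clusters were not made of shared peaks alone. Their spans held 2792 peaks of replicate 1, of which 1338 had no partner in replicate 2, so 52.1% of the replicate 1 peaks inside the spans were shared. Over all autosomes, 60372 of 230627 replicate 1 peaks had a partner. The spans were picked for holding shared peaks, so their higher share follows in part from the rule. Replicate 2 had 1593 peaks in the same spans, of which 125 had no partner in replicate 1. The share over all replicate 2 peaks is not given here, so these 125 have no comparison. In 45 clusters the span also crossed shared promoter peaks, 102 in all, which the rule leaves out of the count. Hotspots, the wider regions that the authors called as enriched for cuts, covered a median of 28.2% of a cluster's span in replicate 1 (range 12.2% to 98.3%) and 9.67% in replicate 2 (2.66% to 78.8%).

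**Figure D1:**
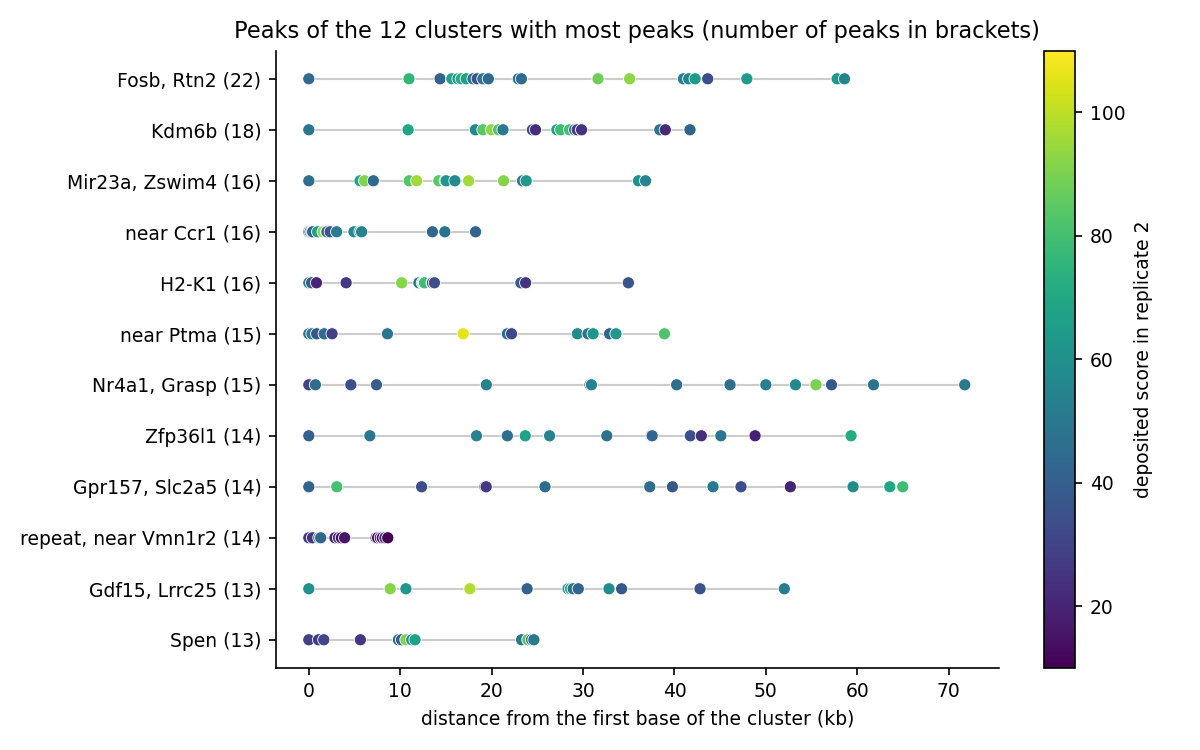
Peaks of the 12 clusters with the most peaks, placed by distance in kb from the first base of each cluster, 1 row per cluster with its number of peaks in brackets. Colour gives the deposited score of the partner peak in replicate 2. The cluster at Fosb and Rtn2 holds 22 peaks over 58.8 kb, while the repeat cluster near Vmn1r2 holds 14 peaks over 8.79 kb with replicate 2 scores of at most 44.

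The largest cluster, with 22 peaks over 58.8 kb at chr7:19284956-19343705, ran across Fosb, which encodes a subunit of the AP-1 transcription factor, and Rtn2, a protein of the endoplasmic reticulum. Its replicate 1 scores ran from 103 over a median of 136.5 to 150, and its replicate 2 scores from 34 over 54.5 to 93. The highest pair, 88 and 93 in replicate 2, lay 31.6 and 35.1 kb from the start of the cluster, and 7 of its 22 peaks fell in exons. A further 39 replicate 1 peaks in this span had no partner in replicate 2.

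At Kdm6b, an H3K27 demethylase gene, 18 peaks over 41.9 kb at chr11:69390476-69432325 had median scores of 135 and 50, and 5 of them held a KLF/SP motif. This span also overlaps Cyb5d1, Dnah2, Naa38 and Tmem88. At Acvr1b, Grasp and Nr4a1, which include an activin receptor and an orphan nuclear receptor, 15 peaks at chr15:101190916-101262825 formed the longest cluster, 71.9 kb, with medians of 132 and 46. At Spen, a transcriptional corepressor, 13 peaks over 24.8 kb had medians of 139 and 45. The cluster at Setd1b, an H3K4 methyltransferase gene, with Rhof and Tmem120b, had 12 peaks with medians of 129.5 and 51. The 13 peaks at Ctcfl, the germline paralogue of CTCF, spanned 61.0 kb and had medians of 135 and 41.

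The 16 peaks at chr8:84186596-84223585 surround Mir23a, Mir27a and Mir24-2 and reach into Zswim4. Their replicate 1 scores ran from 128 over 145 to 150 and their replicate 2 scores from 44 over 63 to 96, so even the weakest of them stood above the median of the other shared distal peaks in both lists (116 and 32). At Zfp36l1, an RNA-binding protein that promotes mRNA decay, and Actn1, an actin cross-linker, 14 peaks over 59.5 kb had medians of 131 and 47, and 5 of them held a CTCF motif. The cluster over Neat1, the long noncoding RNA of paraspeckles, and Frmd8 packed 12 peaks into 8.65 kb, or 1.39 peaks per kb, with medians of 137.5 and 39. It was covered by hotspots for 98.3% of its span in replicate 1 and 58.1% in replicate 2, and every replicate 1 peak in it was shared.

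A cluster of 16 peaks at chr9:123923216-123941605, 20.5 kb from Ccr1, a chemokine receptor of myeloid cells, overlapped no protein-coding gene and had medians of 137.5 and 42.5. The 16 peaks at H2-K1, an MHC class I gene, at chr17:33968676-34003785 were weaker, with medians of 108 and 37.5 and a lowest replicate 1 score of 59. The 14 peaks at Gpr157, an orphan receptor, and Slc2a5, a fructose transporter, spread over 65.1 kb with medians of 121.5 and 43.5. At Gdf15, a secreted stress-induced factor, Lrrc25, Pgpep1 and Ssbp4, 13 peaks over 52.2 kb had medians of 136 and 59. The 13 peaks at Rubcnl covered 67.0 kb, had medians of 134 and 37, and lay 53.0 kb from Lcp1, the leukocyte actin-bundling gene. A group of 15 peaks 17.0 kb from Ptma, the prothymosin alpha gene, had medians of 139 and 48.

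The remaining clusters with the most peaks each held 12 of them. They lay at Itpkb, an inositol trisphosphate kinase gene, with Stum (medians of 134 and 42), at D630003M21Rik (129 and 47.5) and at Rassf3 (129.5 and 39). A further 2 clusters of 12 peaks, near Ifngr2 (121.5 and 45) and Osbpl8 (121 and 36), tied with these and fell outside the 20 that the naming rule takes. The 5 longest clusters were those at Nr4a1, Rubcnl, Gpr157, Ctcfl and Zfp36l1. The 5 with most peaks per kb were 3 clusters of repeat-masked sequence, the Neat1 cluster and a tRNA gene cluster beside Shf with 1.37 peaks per kb. Relative to protein-coding genes, 54 clusters had a TSS inside the span, 52 overlapped no gene, and 14 lay more than 50 kb from the nearest TSS. The farthest, 11 peaks with medians of 141 and 49, was 159.8 kb from the TSS of Dusp6, a phosphatase gene of the ERK pathway.

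Scores were higher in dense clusters than elsewhere. In replicate 1 the members had a median score of 131 with quartiles of 115 and 142, against 116 with quartiles of 97 and 133 for the other shared distal peaks. In replicate 2 the members had a median of 43 (33 and 56), against 32 (23 and 43). The members' median was the higher one on 18 of 19 chromosomes in replicate 1 and on 19 of 19 in replicate 2. The exception was chromosome 16, with 115.5 for members and 120 for the others in replicate 1. Medians followed run size in both lists: 131 and 43 in runs of 8 or more, 124 and 38 in runs of 4 to 7, 118 and 33 in runs of 2 to 3, and 108 and 27 for peaks alone in their run. The upper quartile of the other shared distal peaks in replicate 1, a score of 133, was reached by 607 members (44.9%), and in replicate 2 a score of 43 was reached by 683 (50.5%). The quartiles overlap, so density separates the peaks only in part.

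**Figure D2:**
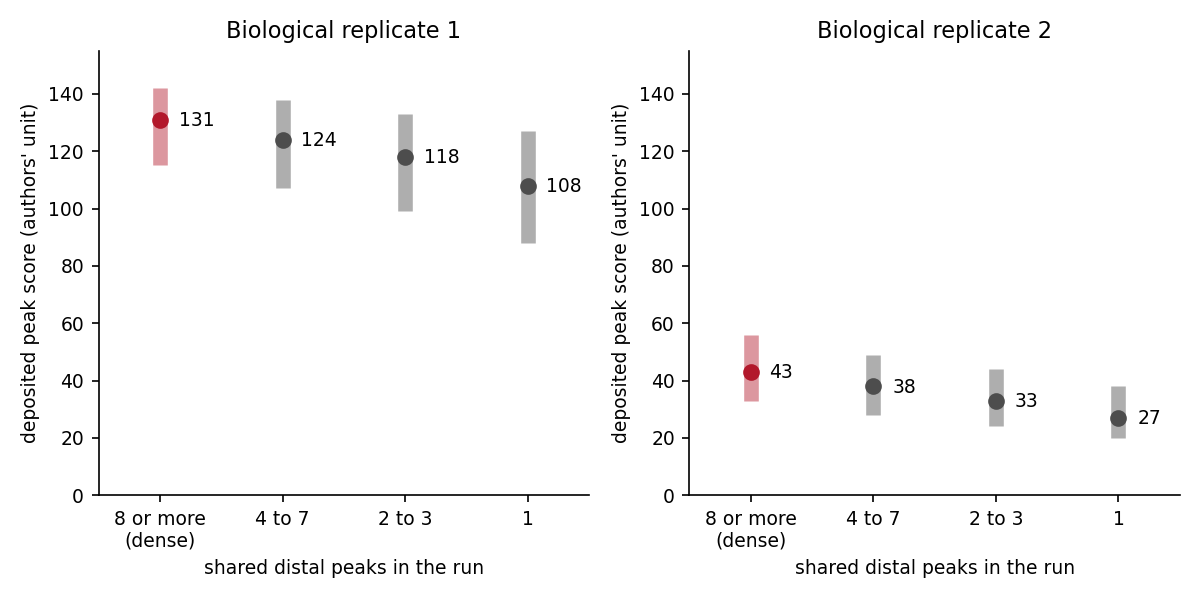
Deposited peak scores by the number of shared distal peaks in a run, for each biological replicate. Points are medians, labelled with their values, and bars run between the quartiles. The dense clusters on the left have medians of 131 in replicate 1 and 43 in replicate 2, and peaks alone in their run on the right have 108 and 27.

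Members of 1 cluster also differed among themselves. The difference between the highest and the lowest replicate 1 score inside a cluster was between 14 and 115, with a median of 47, and in replicate 2 it was between 15 and 77, with a median of 43. A member with a score of 133 or more in replicate 1 was present in 134 of the 139 clusters. The median of a cluster's peaks stood above that of the other shared distal peaks in 120 clusters in replicate 1 and in 117 in replicate 2, and below it in both lists in 10. Cluster medians ranged from 82 to 145 for replicate 1 scores, and for replicate 2 scores from 18 to 69. Over all members, replicate 1 and replicate 2 scores had a Spearman correlation of 0.653, against 0.673 over the other shared distal peaks. These correlations are across peaks of 2 lists from 1 assay and are given as a description. The first and last peaks of the clusters had medians of 127 and 42, against 131 and 43 for those between them.

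**Figure D3:**
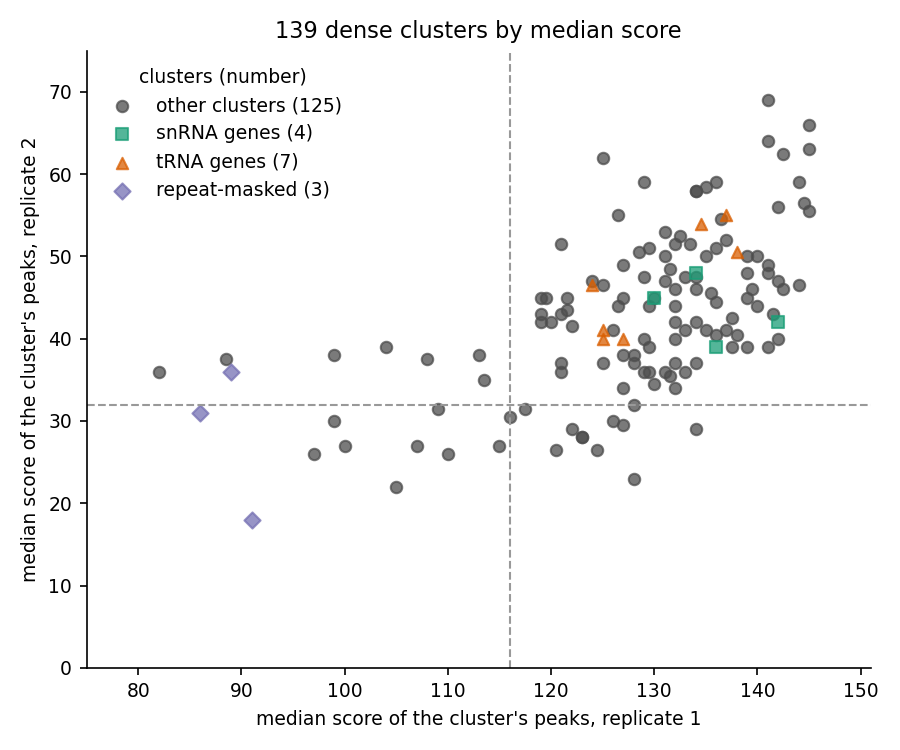
Each point is 1 dense cluster, placed by the median score of its peaks in replicate 1 (horizontal) and replicate 2 (vertical). Symbols mark clusters at tRNA genes, at snRNA genes and in repeat-masked sequence, and dashed lines are the medians of the other shared distal peaks, 116 and 32. The 3 repeat-masked clusters lie left of the vertical line, with replicate 1 medians of 86 to 91.

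Counted per peak, the hotspots around the members were wider. A hotspot counts once for each peak it holds, so wide hotspots with several members weigh more, which close spacing favours. The replicate 1 hotspot that held a member was 822.5 bp wide at the median, against 613 bp for the other shared distal peaks, and in replicate 2 the widths were 260 and 241 bp. Hotspots at the deposited ceiling of 100 on the −log10 q scale held 99.3% of the members and 98.3% of the others in replicate 1. In replicate 2 the shares were 40.8% and 36.6%. The ceiling leaves little room to separate the groups in replicate 1.

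The 10 members with the highest average rank over both lists included the Mir23a and Lrrc25 peaks shown above. The strongest, at chr1:86434516-86434665 (150 and 105), lay in a cluster of 9 peaks beside Tex44, and the next (149 and 106) in the cluster near Ptma. Further ones lay in introns of Itpkb (149 and 102), Mnt, a MYC antagonist of the MAX network (150 and 97), and 2900026A02Rik (150 and 94), beside Malat1, a nuclear long noncoding RNA (150 and 97), and beside Cd300lb, a myeloid surface receptor (149 and 99). Their GC content ran from 50% to 72%, with 52.7% as the median of all members. Of these 10, 3 lay within 1 kb of the TSS of a noncoding gene. Among all members 137 (10.1%) did, against 5.79% of the other shared distal peaks. Those 137 members had medians of 136 and 49, against 130 and 42 for the rest of the members, so part of the strongest signal sat at annotated noncoding starts.

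Fewer members lay inside genes. Introns of protein-coding genes held 31.1% of the members and 42.8% of the other shared distal peaks, exons held 4.29% and 5.60%, and 64.6% of members and 51.6% of the others lay outside protein-coding genes. By run size, the intron share was 46.5% for peaks alone in their run, 42.3% in runs of 2 to 3 and 37.6% in runs of 4 to 7. Runs of 7, just outside the threshold, had 35.1%, so a lower share was not particular to dense clusters. The intron share was the lower one for members on 17 of 19 chromosomes. It was 29.1% for members and 42.1% for the others among peaks scoring 140 to 150 in replicate 1, and 37.6% and 43.8% among those scoring 80 to 99. All peaks lay outside protein-coding genes in 54 clusters, and more than 50% of the peaks were intronic in 39. The surroundings were nevertheless rich in genes: a member had a median of 4 protein-coding genes with a TSS within 100 kb (quartiles of 2 and 6), against 2 (1 and 5). GC content had a median of 52.7% in members and 50.7% in the others.

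Motifs were searched as exact letters on either strand in the central 100 bp of each peak, and a flank of equal width was taken 500 bp away on the side of the chromosome start. Such a flank can fall on a neighbouring peak or in the same hotspot, so it is not always inaccessible background. Gaps between members had a lower quartile of 470 bp, and replicate 1 hotspots had median widths of 822.5 bp around members and 613 bp around the others. Of 21 motifs, CTCF (CCA, any 2 bases, AG, any 2 bases, GGC) was the 1 whose exact 95% Clopper-Pearson interval in members lay wholly below that of the other shared distal peaks. It matched 121 members, or 8.95% (7.48% to 10.6%), against 15.9% of the others, 18.6% of peaks alone in their run and 1.04% of the members' flanks. The intervals cover counting error only, and peaks of 1 cluster are not independent. The share was the lower one for members on 16 of 19 chromosomes. A CTCF match was present in 70 of the 139 clusters, with at most 5 in 1 cluster. First and last peaks of clusters matched in 31 of 278 cases (11.2%), and inner peaks in 90 of 1074 (8.38%). These 2 shares were not weighted for score, and the first and last peaks had lower median scores, 127 and 42 against 131 and 43.

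The CTCF share moved with the score, and the scores of the 2 groups differ. Among peaks scoring 100 to 119 in replicate 1 it was 20% for members and 21.2% for the others. Among peaks scoring 120 to 139 it was 7.56% and 6.37%, and among those scoring 140 to 150 it was 1.47% and 1.17%. Below 80 it was 10.6% for 47 members and 28.4% for the others, and from 80 to 99 it was 17.1% and 28.9%. The 2 lower classes are the ones in which the members' interval lay below the share of the others. With the others weighted to the members' mix of score classes, their CTCF share was 10.2%, beside 8.95% for the members. The corresponding intron share of the others was 42.9%, beside 31.1%.

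**Figure D4:**
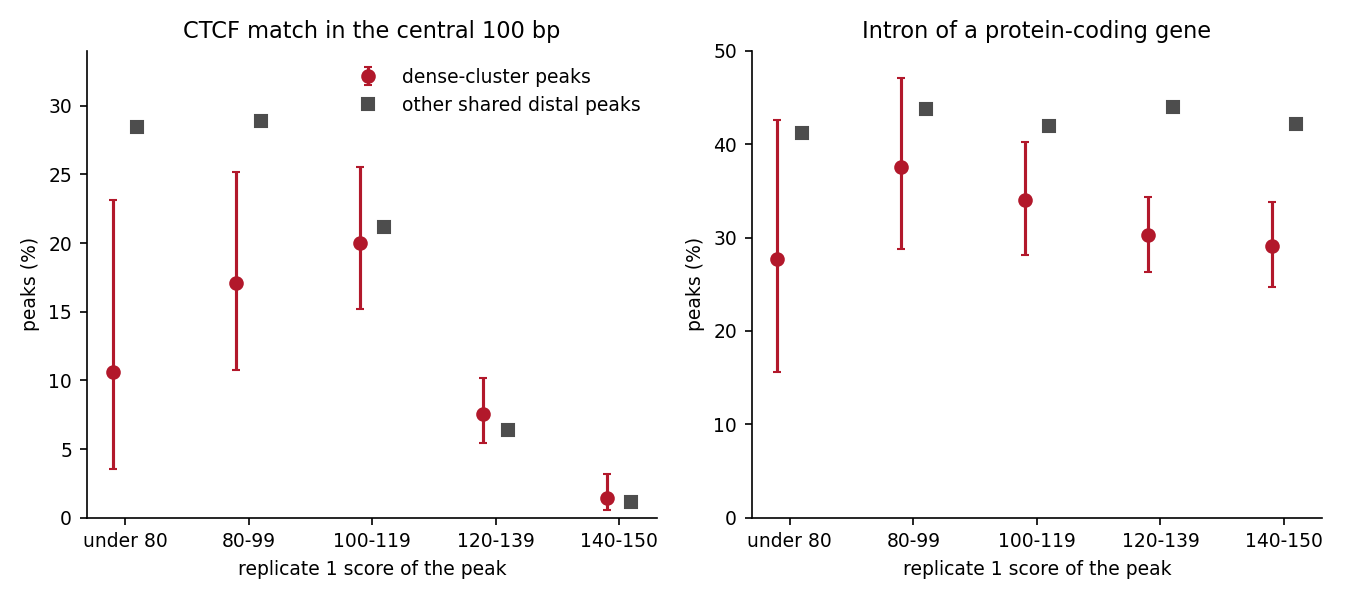
Share of peaks with a CTCF match (left) and in introns of protein-coding genes (right) by replicate 1 score, with dense-cluster peaks left of the other shared distal peaks in each class. Bars are exact 95% intervals for counting error. CTCF shares of both groups come together from a score of 100 upward, 20% and 21.2% in the class of 100 to 119, while intron shares differ in the highest class, 29.1% and 42.1%.

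Before any weighting for score, the members' intervals for motifs of myeloid factors overlapped those of the other shared distal peaks. The PU.1-type ETS motif (GAGGAAGT), bound by the myeloid regulator PU.1, matched 63 members, 4.66% (3.60% to 5.92%), against 5.93% of the others and 0.740% of the members' flanks. RUNX (TGTGGTT) matched 6.21% of the members and 5.83% of the others, and AP-1 (TGANTCA) 5.62% and 5.84%. C/EBP (TTNCGNAA) matched 1.11% and 1.61%, the ETS-IRF composite (GGAA, any 2 bases, GAAA) 2.51% and 2.52%, IRF (GAAA, any 2 bases, GAAA) 1.26% and 1.43%, and the generic ETS motif (CCGGAAGT) 0.666% and 0.68%. For IRF the members' flanks stood at 1.33%, not below the members. The IRF and composite letters can overlap in 1 site. RUNX matches were spread over 64 clusters, AP-1 over 59 and PU.1-type ETS over 45. Beside Actb, 3 of 8 peaks had a PU.1-type match. At the members' mix of scores the others' shares were 6.77% for PU.1-type ETS and 1.86% for C/EBP, both above the members' upper limits of 5.92% and 1.82%. Among peaks scoring 120 to 139 the PU.1-type share was 4.73% for members (3.08% to 6.90%) and 8.12% for the others. Among those scoring 140 to 150 it was 6.36% (4.19% to 9.18%) and 7.11%.

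KLF/SP (GGGCGGGG), a GC-box letter string, was the 1 motif whose interval lay above that of the others, at 3.55% of the members (2.63% to 4.68%) against 2%. At the members' mix of scores the others' share was 2.41%. Of the 48 matching members, 5 belonged to the Kdm6b cluster and 3 to the Mir23a cluster. In 14 of the 21 motifs the members' share exceeded that of their own flanks. The letters AGATAAG, bound by GATA factors of stem and erythroid cells, matched 0.962% of the members, 1.04% of the others and 1.04% of the members' flanks.

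Before any weighting for score, the remaining motifs had intervals in members that overlapped those of the others. The E-box CAGCTG matched 7.99% of the members and 7.05% of the others, MEIS (TGACAG) 7.77% and 8.52%, and TEAD (GGAATG) 4.44% and 4.14%. The members' flanks stood at 7.91% for MEIS and at 4.96% for TEAD, above the members. STAT (TTCNNNGAA) matched 3.18% of the members and 2.47% of the others, NFY (CCAATCA) 1.92% and 1.4%, and MEF2 (CTA, any 4 bases, TAG) 1.63% and 1.52%. HOX/PBX (TGATTNAT) matched 0.962% and 1.57%, GFI1 (AATCANNGC) 0.962% and 0.828%, and MYB (TAACGG) 0.740% and 0.919%. Weighted to the members' mix of scores, the others' HOX/PBX share was 1.76%, above the members' upper limit of 1.64%. NF-kB (GGGA, any 2 bases, TTCC) matched 0.518% and 0.507%, and the palindromic NRF1 motif was found in 1 member, 0.0740%, and in 0.0577% of the others. The members' flanks stood at 1.18% for GFI1, 0.518% for NF-kB and 0.148% for NRF1, not below the members. The shares of HOX/PBX, GFI1, MYB, NF-kB and NRF1 rest on 13 members or fewer each.

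**Figure D5:**
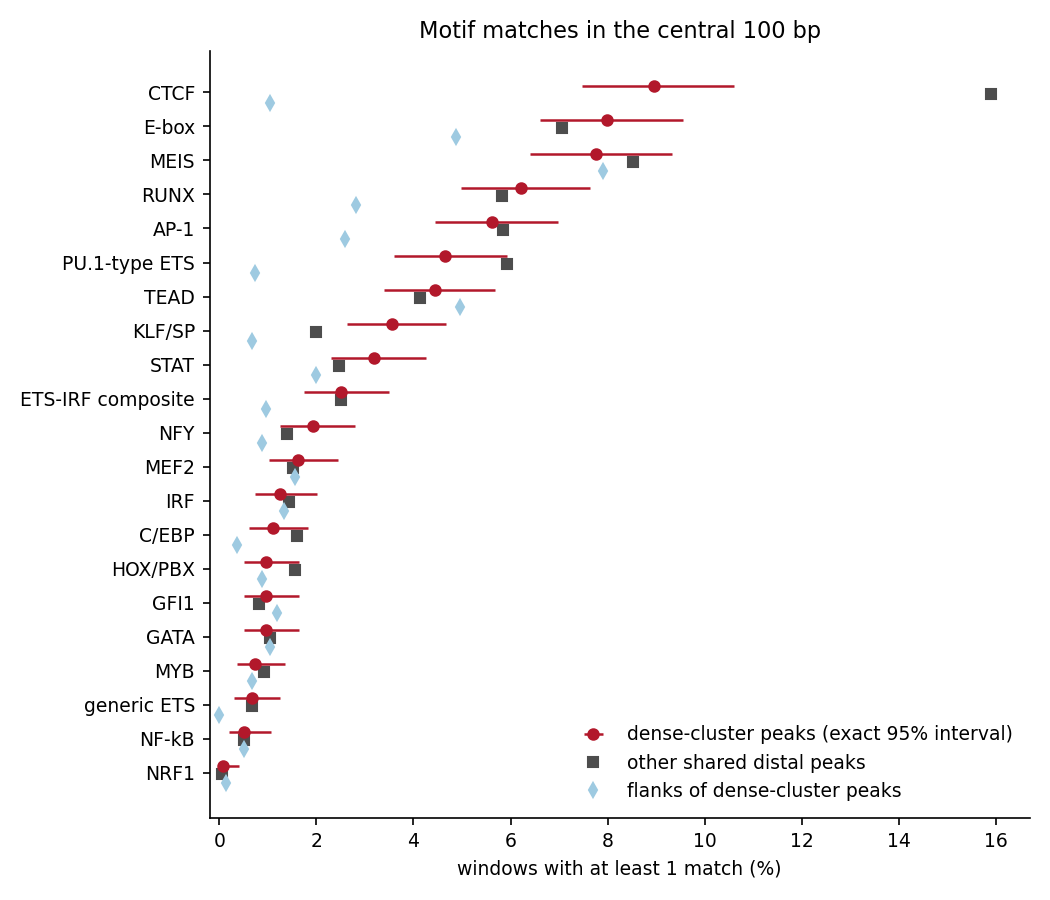
Share of windows with at least 1 match for 21 motifs, in the central 100 bp of dense-cluster peaks (with exact 95% intervals), in the other shared distal peaks and in flanks 500 bp away. CTCF at 8.95% lies left of the 15.9% of the other peaks, and KLF/SP at 3.55% lies right of 2%.

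Genes near the clusters were read against all genes. A dense-cluster peak lay in the body of 447 of 20807 autosomal protein-coding genes or within 50 kb of it (2.15%). Of the 447 genes, 358 (80.1%) had a shared promoter peak, against 58.8% of the genes with no dense cluster near and 59.2% of all. Of 123 autosomal genes on 6 blood-lineage lists, 11 (8.94%) had one, near 9 clusters. Gene length, which changes the chance of holding a cluster, was not matched. By list, the counts were 1 of 18 myeloid transcription factors, 1 of 23 stem and progenitor regulators, 1 of 16 HOXA-MEIS leukemia genes, 4 of 29 pan-leukocyte and receptor genes, 1 of 19 neutrophil genes and 3 of 20 monocyte and macrophage genes. None was found near the 24 genes mutated in human AML, the 12 B cell, 15 T and NK cell, 12 erythroid and megakaryocyte, 12 hepatocyte and 12 neuronal genes. On the housekeeping list the count was 2 of 14 (14.3%), with Actb among them. That share was above the 8.94% of the blood-lineage lists together, so a cluster near was not particular to blood genes. These lists are small, and 0 of 12 does not set the B cell list apart from 2.15%.

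Cdk6, a G1 cyclin-dependent kinase gene and a target of HOXA-MEIS leukemias, had its whole cluster inside 1 gene: 8 intronic peaks over 12.4 kb at chr5:3490416-3502805. Their replicate 1 scores were 108, 132, 149, 145, 144, 147, 145 and 148 in genomic order, and their replicate 2 scores were 43, 43, 72, 59, 53, 41, 58 and 69. All but the lowest stood above 116 in replicate 1, and all 8 stood above 32 in replicate 2. Erg, an ETS factor of stem cells, had 8 peaks 14.1 kb from its body with medians of 129.5 and 44. Rara, the retinoic acid receptor gene, had 9 peaks with medians of 119 and 43 in a cluster that reached Cdc6 and Wipf2.

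The 9 peaks at Ncf4, a subunit of the phagocyte NADPH oxidase, had replicate 1 scores from 121 over 140 to 150 and replicate 2 scores from 30 over 50 to 73, and the same peaks lay 3.88 kb from Csf2rb2. Only 1 of them came within 50 kb of Csf2rb, the common beta chain of the GM-CSF, IL-3 and IL-5 receptors. Vav1, a guanine nucleotide exchange factor of blood cells, had 16 peaks in 2 clusters with medians of 134 and 47.5, and 1 of these clusters also lay 11.4 kb from Adgre1, the F4/80 macrophage antigen. Coro1a, a leukocyte coronin, had 8 peaks 28.5 kb away with medians of 132 and 51.5. Fcgr3, a low-affinity IgG receptor gene, had 8 peaks with medians of 124 and 46.5, 7 of them within 1 kb of a tRNA gene. Cd300lf had 1 peak within 50 kb, with scores of 116 and 63.

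The 8 peaks beside Actb, the cytoplasmic beta-actin gene, had high scores, with medians of 141 and 64. Some further clusters fall outside the naming rule and were chosen after their values were seen. The 10 peaks at chr2:167740876-167778025, 50.5 kb from Cebpb, a C/EBP factor of myeloid cells, had medians of 142.5 and 62.5. The 8 peaks beside Rpn1, 57.5 kb from Gata2, a stem cell GATA factor, had medians of 142.5 and 46. The 9 peaks 22.5 kb from Runx3 had medians of 127 and 45. The 9 peaks at chr12:113216076-113224505 lay between Igha, the immunoglobulin alpha constant gene, 30.3 kb away, and Tmem121, with medians of 127 and 49, although no gene of the B cell list had a cluster near. The 8 peaks over and beside Malat1 had medians of 145 and 66.

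Small RNA genes lay beside a larger share of the members than of the other peaks. A tRNA gene lay within 1 kb of 58 members (4.29%), against 0.432% of the other shared distal peaks, and an snRNA gene lay within 1 kb of 33 members (2.44%), against 0.168%. By a rule set after the values were seen, 7 clusters with 68 peaks had 50% or more of their peaks beside tRNA genes, and 4 clusters with 36 peaks had them beside snRNA genes. All 58 members near tRNA genes lay in these 7 clusters, and most of the 33 near snRNA genes lay in these 4. The larger shares therefore come from few clusters. The tRNA clusters had medians of 128.5 and 47 and spans of 6.59 to 22.9 kb, and 2 of them lay in the histone gene region of chromosome 13. The B-box letters were present in 26 of the 58 members near tRNA genes (44.8%), in 5.49% of the other members, in 36.0% of the other shared distal peaks near tRNA genes and in 4.95% of the rest. None of the 68 peaks in the tRNA clusters held a PU.1-type match, and 3 held a CTCF match. Annotated tRNA and snRNA genes occur in near-identical copies, and how the authors placed reads that fit several copies is unknown here.

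The 3 remaining clusters, with 36 peaks, lay in sequence of which 50% or more is masked as repetitive, and their peaks had medians of 90 and 25.5, against 131 and 43 for the 125 clusters below these 50% limits. The cluster at chr4:3082296-3091085, 14 peaks with medians of 91 and 18, began 32.3 kb from the first sequenced base of chromosome 4, and the one on chromosome 18 began 4.215 kb from its first. The third, 13 peaks in 4.61 kb in an intron of Tmem267 on chromosome 13, had medians of 89 and 36, and 5 of its neighbouring pairs overlapped. At least 3 copies of TGGAGC were found in 3 members (0.222%), all of them in the chromosome 4 cluster, and in 0.0753% of the other shared distal peaks. Without the tRNA, snRNA and repeat-masked clusters, 1212 members in 125 clusters had the same medians of 131 and 43. Their CTCF share was 9.57%, their intron share 32.7% and their PU.1-type share 5.12%, the last beside 4.66% over all members.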

How the data were processed

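Peaks were deposited by the authors as 1 list per biological replicate, 236802 windows in replicate 1 and 67564 in replicate 2, each with a whole-number score that ran up to 150. Repeated entries were kept once, leaving 236754 and 67559 peaks. Hotspots were deposited by the authors with a −log10 q value that stops at 100. Per the text files deposited with the samples, the 2 libraries of a replicate share 1 mm10 alignment. The sources used here do not give the caller, its settings, the meaning of the score or the depth. Scores were therefore compared only within a list. The labels give 1 donor and a biological replicate number, and do not say whether the replicates were separate cultures.

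Peaks were joined, annotated with GENCODE M21 and searched for motifs in the RefSeq copy of GRCm38 with Python 3.11.15, numpy 2.4.6, pandas 2.3.3 and scipy 1.17.1. A member's replicate 2 score is that of its strongest overlapping partner. Joining and motif search were tested on simulated data. Members, gene lists and motifs were chosen with earlier results of these data known. No test was made, since values are 1 list per replicate and the peaks of a cluster share their source.

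Clusters and genes were named by a rule: the 20 clusters with most peaks, the 5 longest, the 5 with most peaks per kb, the 10 members with the highest average rank, and every gene of the 13 lists with a member in it or within 50 kb. Some items that this rule or the choice of sequences names are not reported here. Sequences are lead peaks of large clusters, strong members with a motif match, and examples of the tRNA and repeat-masked clusters. Alternatives changed the joining distance, the number of peaks, the TSS distance, the overlap, the score minimum, the list length, the replicate used, the motif window and the gene window. Leaving out the tRNA, snRNA and repeat-masked clusters, or peaks within 1 kb of any annotated TSS, was chosen after seeing the data.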

Additional observations from a re-analysis of the deposited data

How the results depend on the processing

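Depth is unknown and each replicate gives 1 pooled list, so no value has a replicate error. A joining distance of 5 kb gave 307 members in 32 clusters, a replicate 2 median of 41, an intron share of 24.8%, a CTCF share of 3.91% and 4 blood-lineage genes. A distance of 20 kb gave 4072 in 400, medians of 127 and 41, 35.7%, 12.1% and 27 genes. Clusters of 5 or more peaks gave 5895 in 960, medians of 127 and 40, 35.0%, 11.7% and 47 genes. Those of 12 or more gave 309 in 22, a replicate 2 median of 45, 25.2% and 0 genes. Scores of at least 100 and 50 left 37 members in 3 clusters, medians of 146 and 67, an intron share of 18.9%, CTCF and PU.1-type shares of 2.70% each and 0 genes. Lists of equal length gave medians of 134 and 45. A TSS distance of 2.5 kb gave an intron share of 26.5% and 7 genes, leaving out peaks near any annotated TSS an intron share of 35.0%, an overlap of 75 bp a CTCF share of 10.9%, the whole peak a CTCF share of 11.1%, and a 10 kb gene window 6 genes.

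With each list alone, without replicate 1 or without replicate 2, members numbered 1946 to 110160, clusters 193 to 6880 and blood-lineage genes 16 to 117. The replicate 1 median was 78 and the replicate 2 median 41. Intron shares were 29.0% to 44.7%, PU.1-type shares 3.70% to 6.09% and CTCF shares 6.04% to 9.87%. A replicate 1 score without replicate 1, and a replicate 2 score without replicate 2, cannot be given. The other 49 of 98 recomputed values moved by less than the limits set for them. In the 11 alternative choices of members compared, members had the higher median score, the lower intron, CTCF and PU.1-type shares and the higher KLF/SP share each time. These shares were not weighted for score, although the members scored higher in each choice, and the score minimum left 37 members. In the main choice the others' CTCF share at the members' mix of scores was 10.2%, inside the members' interval of 7.48% to 10.6%. The tRNA share was the higher one for members in all of them except clusters of 12 or more and the score minimum, where no member was near a tRNA gene.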
